A study of Mus musculus with 28 samples.

Results

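The imprinted domain of Peg3 and Usp29 was followed across ATAC-seq peak lists from mouse fibroblasts turned towards muscle progenitors and from muscle stem cells. ATAC-seq cuts open chromatin with a transposase, so a peak marks a stretch of accessible DNA. The domain was taken as the 400 kb window chr7:6550000-6950000 of the mm9 genome, and its members were the peaks of each list that overlapped it. They came to 613 of the 2048700 peaks listed in 28 libraries, with 11 to 33 peaks in a library and a median of 23. Peaks that overlapped between libraries were merged, which gave 51 regions in the window out of 253225 in the series. A library is said to call a region when its list has a peak there.

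The window was singled out with earlier results of these lists known, because its middle held many regions called in Dox+FRG day 8 cells and not in day 0 fibroblasts. That contrast is therefore a description here and carries no test. The edges were wide enough to leave empty ends, with no peak in any list from 6550000 to 6612332 (62.3 kb) or from 6894129 to 6950000 (55.9 kb).

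Peg3, also called Pw1, encodes a zinc finger protein, and Usp29 encodes a ubiquitin-specific protease. Both are imprinted and expressed from the paternal allele, and they are transcribed in opposite directions from neighbouring starts inside a differentially methylated region. In skeletal muscle PW1 protein is known from satellite cells, the muscle stem cells, and from interstitial progenitors. The lists do not separate the parental alleles, and in a bulk library a smaller share of cells with open chromatin cannot be told apart from less open chromatin in each cell.

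The starting cells were embryonic fibroblasts isolated at E13.5 that carried a doxycycline-dependent activator at Rosa (rtTA), a tetO-MyoD cassette at Col1a1 and the Pax7-nGFP reporter. MyoD is a transcription factor that drives fibroblasts into the muscle lineage. The groups labelled MEF14 were untreated day 0 cells, and cells with doxycycline (2 µg/ml) plus FRG after 2, 4, 6 and 8 days (Dox+FRG). Dox+FRG cells with no GFP in their label are called unsorted, but how cells were sorted is not stated in the labels. Further MEF14 groups had the label GFP after 8 or 10 days of Dox+FRG. Doxycycline without FRG (Dox) was sampled on days 4 and 8, and FRG without doxycycline on day 8. FRG was read as forskolin (5 µM), which raises cAMP, RepSox (5 µM), an inhibitor of TGF-beta receptor signalling, and the GSK3 inhibitor CHIR99021 (3 µM). Medium for conversion held basic FGF at 10 ng/ml. The labels name MEF10 MyoD+FRG and MEF10 MN+FRG cells at day 6 without defining MN or the difference between MEF10 and MEF14. Quiescent and activated satellite cells came from adult Pax7-nGFP mice of 10 to 12 weeks. For expanded satellite cells the protocol gives basic FGF at 5 ng/ml. No strain or sex is named, and the labels do not say whether the 2 libraries of a group were separate cultures or animals.

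The lists held 37301 to 134997 peaks and no read counts, so the depth of a library is unknown. The longest belonged to the Dox and FRG groups. In most lists the majority of peaks shared a width, from 61 to 205 bp. MEF10 MyoD+FRG replicate 2 stood apart, with a most common width of 500 bp and a median of 722 bp, and 8.91% of the window lay under its peaks against 0.718% to 2.42% in the other 27. No gene annotation of mm9 was used, so regions are given by position and not assigned to exons, introns or promoters, and the labelled cell types were not checked against marker genes.

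In RefSeq's gene order for GRCm38.p6 the domain reads Zim2, Zim1, Peg3, Peg3os, Usp29, the pseudogene Gm51257, the microRNA gene Mir3099 and Zim3. Of 6 genes listed for the domain (those of the Zim, Peg3 and Usp29 names and Zfp264), 4 had a promoter in the RefSeq table. The Peg3 and Usp29 promoters are shown because the domain is named for these genes. Each runs from 250 bases before to 50 bases after the start, 5′ to 3′ on the gene's own strand (Peg3 minus, Usp29 plus; GRCm38.p6). Capitals mark the cAMP response element TGACGTCA.

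Peg3: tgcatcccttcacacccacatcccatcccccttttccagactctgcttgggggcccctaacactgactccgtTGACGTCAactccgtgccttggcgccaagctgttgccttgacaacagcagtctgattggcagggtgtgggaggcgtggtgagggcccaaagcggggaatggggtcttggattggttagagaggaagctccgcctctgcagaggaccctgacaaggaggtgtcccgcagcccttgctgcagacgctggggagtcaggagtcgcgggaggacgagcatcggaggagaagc

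Usp29: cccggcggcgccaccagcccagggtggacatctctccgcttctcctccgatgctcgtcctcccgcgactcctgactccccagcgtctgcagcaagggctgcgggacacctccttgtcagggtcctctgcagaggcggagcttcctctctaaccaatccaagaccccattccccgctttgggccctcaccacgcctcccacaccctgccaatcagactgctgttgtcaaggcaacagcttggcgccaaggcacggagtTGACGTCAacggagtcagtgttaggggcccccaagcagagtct

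The reverse complement of the Usp29 window shares 263 of its 300 bases with the Peg3 window, so the letters show a single divergent promoter. The capitals are the same site read from both strands, and 1.79% of 32851 RefSeq promoters of the same length hold that motif on either strand. The E-box CANNTG, the core bound by MyoD and related factors, had no match in either window, while 72.3% of all promoters had one. The AP-1 motif TGANTCA had no match either (7.81% of all promoters), and CCAAT matched 2 times (37.4% have a match). Peg3's window held 13 CpG and 61.3% G or C, and Usp29's 17 CpG and 63.7%, against medians of 7 CpG and 52.7% over all promoters. These matches describe the letters only. Which mm9 region of the lists holds this promoter was not determined.

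Peak number in the window was low in day 0 and day 2 cells and higher from day 4 on. Day 0 libraries had 14 and 16 peaks and Dox+FRG day 2 libraries 13 and 14. Day 4 libraries had 23 and 22, day 6 libraries 24 and 25, and day 8 libraries 26 and 21. Every library of days 4 to 8 thus lay above every library of days 0 and 2, although the day 8 and day 0 values include those that drew attention to the window. List length did not follow this order: the day 4 replicate 2 list (51536 peaks) and the day 8 replicate 2 list (50608) were shorter than both day 0 lists (70756 and 67502).

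On either side of the window the values of these days lay closer together. In the 400 kb before it, day 0 libraries had 10 and 9 peaks and Dox+FRG day 2 libraries 10 and 10. There day 4 libraries had 11 and 10, day 6 libraries 13 and 12, and day 8 libraries 12 and 9, so that day 6 lay above days 0 and 2 while days 4 and 8 overlapped them. In the 400 kb after it, these 10 libraries had 7 or 8 peaks. In all 28 libraries the window held more peaks than either flank.

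**Figure D1:**
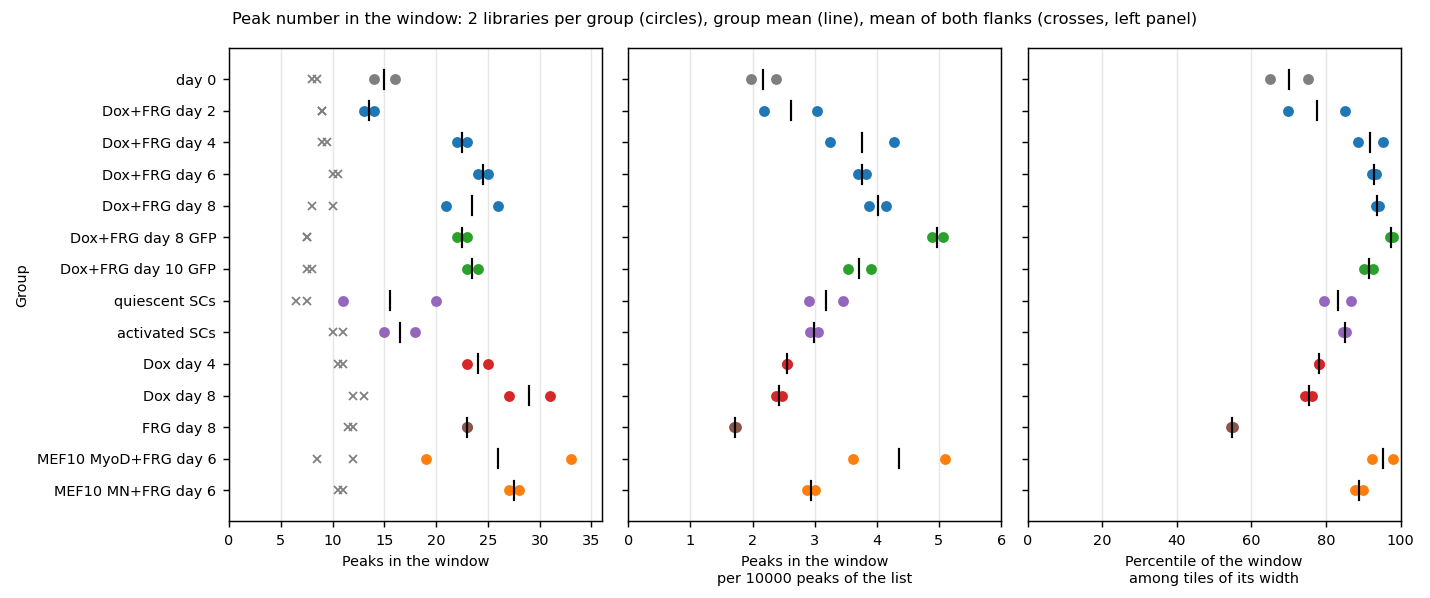
Peaks in the window (left), per 10000 peaks of the list (middle) and as a percentile among genome tiles of the same width (right), for 2 libraries of each group (circles) with the group mean (line); crosses are the mean of both flanks of a library. Day 0 and day 2 libraries sit at 13 to 16 peaks, and FRG libraries have 23 peaks but the lowest percentiles, 54.5 and 55.0.

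A longer list tends to have more peaks in any window. Hence 2 scales were used for this: peaks in the window per 10000 peaks of the list, and the percentile of the window's count among 400 kb tiles of the genome with at least 1 peak. Day 0 libraries had 1.98 and 2.37 peaks per 10000, and percentiles of 65.0 and 75.2. Dox+FRG day 2 libraries had 2.18 and 3.04 per 10000 (percentiles 69.8 and 85.2), and day 4 libraries 3.25 and 4.27 (88.5 and 95.4). Day 6 libraries followed with 3.70 and 3.82 per 10000 (92.4 and 93.4), and day 8 libraries with 3.88 and 4.15 (93.4 and 94.1). On both scales days 4 to 8 again lay above days 0 and 2 without overlap.

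Cells labelled GFP, after the Pax7 reporter, had 22 to 24 peaks in the window. Day 8 GFP libraries had 23 and 22 peaks, or 4.89 and 5.06 per 10000, at percentiles of 97.2 and 97.9. Day 10 GFP libraries had 24 and 23 peaks, or 3.90 and 3.54 per 10000, at percentiles of 92.7 and 90.3. The 4 GFP libraries had 4.35 ± 0.744 (SD) and the 4 unsorted Dox+FRG libraries of days 4 and 6 had 3.76 ± 0.421. The difference was 0.590 peaks per 10000 (two-sided exact permutation test over 70 splits, p = 0.257, adjusted over 3 tests p = 0.257). The GFP spread includes the gap between days 8 and 10. Both day 8 GFP libraries lay above these unsorted libraries (3.25 to 4.27), and both day 10 GFP libraries lay within their range.

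Satellite cells had fewer peaks in the window than GFP cells. Quiescent libraries had 20 and 11 peaks, or 3.46 and 2.90 per 10000, and activated libraries 15 and 18, or 3.06 and 2.93. All 4 lay below all 4 GFP libraries in count and per 10000. The share was 3.09 ± 0.256 in satellite cells and 4.35 ± 0.744 in GFP cells (SD, n = 4 each), a difference of -1.26 (two-sided exact permutation test, p = 0.0286, adjusted p = 0.0429). The lists were of like length, 37910 to 61400 peaks in satellite cells and 43467 to 64947 in GFP cells. The choice of the window from Dox+FRG day 8 cells, of the same conversion, favours a higher share in GFP cells. The p of 0.0286 is the smallest that 4 against 4 allows. It was 0.0571 when any satellite cell library was left out, and with labels permuted within replicate numbers 0.0556, the smallest that scheme can give. With wide peaks alone, those above the most common width in the same list, the difference turned to 1.57 (exact permutation p = 0.400). Quiescent and activated cells overlapped in count, and 2 libraries against 2 cannot give an exact p below 0.333.

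Cells with doxycycline alone had many peaks in the window, but a lower share of their longer lists than Dox+FRG cells. Dox day 4 libraries had 23 and 25 peaks and day 8 libraries 27 and 31, or 2.56, 2.55, 2.48 and 2.37 per 10000. The window lay at percentiles of 78.2, 78.2, 76.2 and 74.5 among tiles in these Dox libraries, against 88.5 to 95.4 in Dox+FRG days 4 and 6. The Dox share of 2.49 ± 0.0893 was below the 3.76 ± 0.421 of unsorted Dox+FRG cells of days 4 and 6 (SD, n = 4 each) without overlap, a difference of -1.27 (two-sided exact permutation test, p = 0.0286, adjusted p = 0.0429). Dox lists had 89871 to 130916 peaks and Dox+FRG lists 51536 to 70877, and the part of list length in this difference was not tested. The choice of the window from Dox+FRG day 8 cells also favours a higher share in Dox+FRG cells. As plain counts the difference turned, to 3.00 more peaks in Dox cells (exact permutation p = 0.200). With wide peaks alone it was -0.754 (exact permutation p = 0.143), and with labels permuted within replicate numbers p was 0.0556.

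FRG alone gave 23 peaks in both libraries, or 1.70 and 1.73 per 10000, the lowest shares of all 28 libraries, from the list of 134997 and another of 133267 peaks. MEF10 MyoD+FRG had 19 peaks in replicate 1 (5.09 per 10000, the highest share) and 33 in replicate 2 (3.61), and MEF10 MN+FRG had 28 and 27 (3.01 and 2.88). MEF10 MyoD+FRG rests on replicate 1 alone where the wide peaks of replicate 2 are left out.

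The differences lay mostly in the middle of the window, which its choice for regions of the middle favours, so their place is a description. In 4 segments of 100 kb, segment 2 (6650001 to 6750000) held the most peaks in all 28 libraries, tied or alone, with 5 to 16, and segment 3 (6750001 to 6850000) held 2 to 10. Segments 1 and 4 held 1 to 5 and 2 to 6, and they include the empty ends of 62.3 and 55.9 kb. In segment 2 day 0 libraries had 5 and 7 peaks, Dox+FRG day 4 libraries 10 and 11, and GFP libraries of days 8 and 10 had 10, 12, 12 and 11. In segment 3 day 0 libraries had 3 and 2, day 6 libraries 7 and 8, and day 8 libraries 9 and 6. In segment 1 day 0 libraries had 2 and 2 peaks and day 8 libraries 4 and 2. In segment 4 day 0 libraries had 4 and 5 peaks and day 8 libraries 4 and 3.

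**Figure D2:**
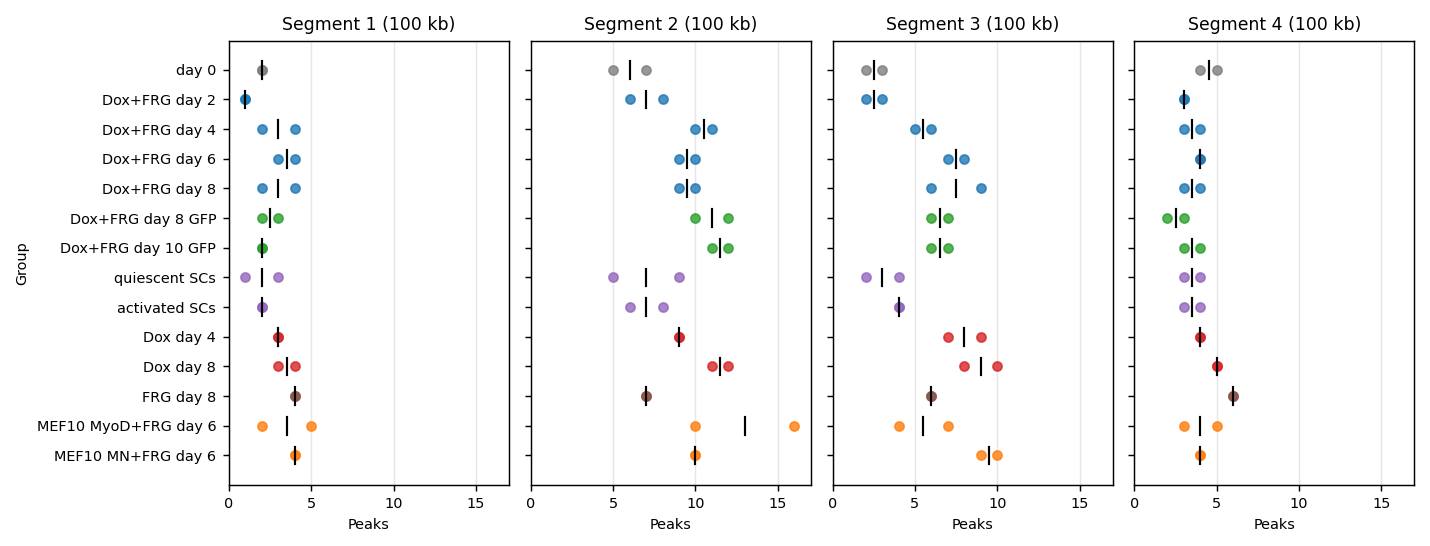
Peaks in each 100 kb segment of the window, for 2 libraries of each group (circles) with the group mean (line). Segment 2 goes from 5 and 7 peaks at day 0 to 10 and 11 at Dox+FRG day 4, while segments 1 and 4 stay at 6 peaks or fewer in every library.

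Of the 51 regions, 4 were called in all 28 libraries (7.84%, against 5.55% over the series), 14 in at least 20 libraries (27.5%, against 14.4%) and 8 in a single library (15.7%, against 24.6%). A region of the window was called in a median of 8 libraries, against 4 over the series. In both libraries of at least 1 group 41 regions were called. Of the 8 regions called in a single library, 3 were those of MEF10 MyoD+FRG replicate 2. The Jaccard index of replicates, the number of regions both called divided by the number that any of them called, was higher in the window than over the series in 11 of 14 groups. It reached 0.913 in FRG cells and 0.885 at day 6, and was lowest in quiescent satellite cells at 0.550, where replicate 2 called 11 regions and all of them were among the 20 of replicate 1.

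**Figure D3:**
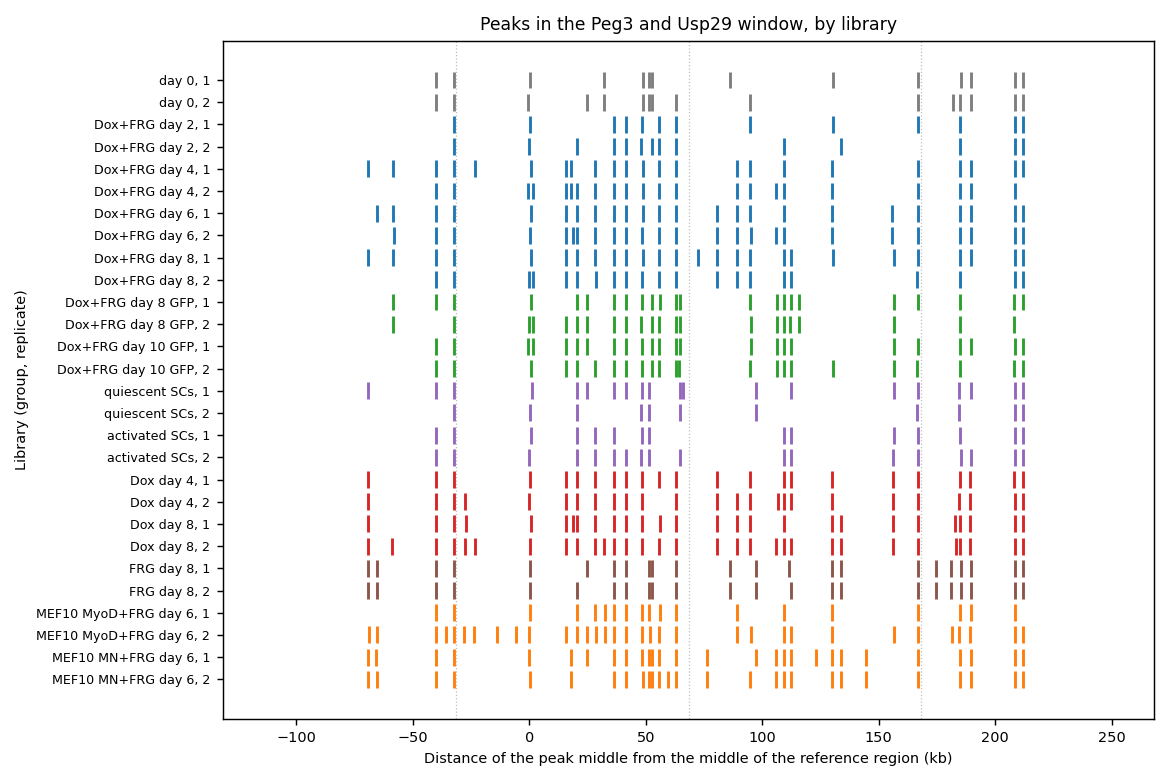
Every peak of the window, drawn as a bar at its middle, with distance in kb from the middle of the reference region chr7:6679803-6683558, for each library; dotted lines part the 100 kb segments and colours mark the kind of cell. The 4 regions called in all 28 libraries form unbroken columns, and more columns to the right of the reference region are filled from day 4 on.

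The regions called in all 28 libraries were chr7:6648730-6649739, chr7:6679803-6683558, chr7:6863641-6867659 and chr7:6889609-6890507. They differed in shape. The second, used below as the reference region, held some of the widest peaks of the whole lists: a peak wider than the list's most common width in 23 of 28 libraries, with a median of 2164 bp. In 16 libraries that peak was among the 100 widest of the list, and its best rank was 2, in MEF10 MyoD+FRG replicate 1 (2748 bp). It was 2662 and 2164 bp wide in day 0 cells, 2906 and 2943 bp in FRG cells and 2695 and 3068 bp in Dox day 4 cells. In satellite cells the widest peak there was 828 and 1099 bp in quiescent and 2078 and 173 bp in activated libraries, within the range of the other libraries.

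Replicates could disagree on that width. Dox+FRG day 2 libraries gave 2744 and 205 bp, day 8 libraries 1988 and 172 bp, and day 8 GFP libraries 2118 and 182 bp. In 5 libraries the region held only peaks of the most common width, and in 4 libraries it was split into 2 peaks, so its width does not order the groups. In the regions chr7:6648730-6649739 and chr7:6889609-6890507 the 27 other lists had peaks of their most common width only, and MEF10 MyoD+FRG replicate 2 had wider ones. In chr7:6863641-6867659 the widest peaks of the other 27 lists were those of quiescent satellite cells, at 1312 and 1274 bp. That region holds 2 sites when regions are merged without MEF10 MyoD+FRG replicate 2. The site chr7:6865403-6867417 was called in all 28 libraries, and chr7:6863641-6864763 in both Dox day 8 libraries and MEF10 MyoD+FRG replicate 2 only.

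A call of the same region is not always a call of the same site. Outside MEF10 MyoD+FRG replicate 2, 24 of the 48 regions called in another library had peaks that did not all overlap each other. The long peaks of that library joined separate sites in 2 regions, chr7:6863641-6867659 and chr7:6732521-6734575, and the sites of the latter are described with the lost regions.

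Against day 0, Dox+FRG day 8 cells gained 10 of the 31 regions called in any of the 4 libraries (32.3%) and lost 2 (6.45%), where gained means called in both libraries of the first group and in neither of the second. Over the series 14.2% of regions were gained and 21.8% lost. All 12 lay in segments 2 and 3. Without day 0 replicate 1 there were 4 lost regions. The window was chosen from this contrast, and these counts support nothing further.

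The gained regions were first called at different times. Regions chr7:6717620-6718539, chr7:6722497-6723784 and chr7:6736836-6737838 were called in both libraries of Dox+FRG days 2, 4, 6 and 8 and of GFP days 8 and 10, and in no day 0 library. This pattern, picked after the calls were seen, held for 3 of 39 regions of the window (7.69%), against 1.47% over the series. It includes calls at day 8 and none at day 0, the contrast the window was chosen from, so the choice favours it here. Regions chr7:6717620-6718539 and chr7:6722497-6723784 were also called in both FRG libraries and in all MEF10 and Dox libraries, whereas chr7:6736836-6737838 was called in neither FRG library and in no satellite cell library. In chr7:6722497-6723784, however, the peak of FRG replicate 2 (6723270 to 6723332) overlapped no peak of a MEF14 Dox+FRG or GFP library.

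A further set was called from day 4 of doxycycline and not with FRG alone. Regions chr7:6697113-6697758 and chr7:6709469-6710841 were called in all 10 libraries of unsorted Dox+FRG cells of days 4 to 8 and of Dox cells. Neither was called in any day 0, FRG or MEF10 MN+FRG library, nor in either Dox+FRG day 2 library, although day 2 cells had doxycycline too. That pattern, also picked after the calls were seen, held for 2 of 45 regions of the window (4.44%), against 1.29% over the series. Here too the choice of the window favours it, as it includes calls at Dox+FRG day 8 and none at day 0. Region chr7:6709469-6710841 was called in both MEF10 MyoD+FRG libraries and both activated satellite cell libraries, in neither quiescent library and in 1 of 4 GFP libraries. Region chr7:6697113-6697758 was called in no satellite cell library and in 3 of 4 GFP libraries. Region chr7:6761977-6762354 was narrower in scope, called in both libraries of Dox+FRG days 6 and 8 and of Dox days 4 and 8 and in no other library, as 22 regions of the series were (0.00869%).

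Region chr7:6701865-6702490 was gained as well, and was called in 21 libraries, among them all 4 satellite cell, all 4 GFP and all 4 Dox libraries. It was absent from the lists of day 0 and MEF10 MN+FRG and present in 1 of 2 FRG libraries. The remaining gained regions, chr7:6770229-6771110, chr7:6790447-6791491 and chr7:6792875-6794265, fell outside the number set for naming and were taken up after their calls were seen. Region chr7:6792875-6794265 was called in no Dox+FRG library of days 2 to 6 and in both of day 8, but both Dox day 4 libraries called it too. It was also called in all GFP, activated satellite cell, FRG and MEF10 MN+FRG libraries, though not always at the same site. Of quiescent satellite cells, Dox day 8 and MEF10 MyoD+FRG cells, 1 library each called it. The peaks of the 2 Dox+FRG day 8 libraries (6793721 to 6793900 and 6793938 to 6794109) did not overlap, and no MEF10 MN+FRG peak overlapped a GFP peak.

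In the groups that the choice of the window did not use, the 10 gained regions are set beside all gained regions of the series. Both libraries called 7 of the 10 at Dox+FRG day 4 (59.7% of the 14968 gained regions of the series) and 9 at day 6 (80.9%). Both Dox day 8 libraries called 9 (81.0% over the series), and both FRG libraries 3 (25.4%). Day 10 GFP cells called 7 (66.0%), activated satellite cells 5 (42.8%) and quiescent satellite cells 1 (20.6%). Quiescent replicate 1, but not replicate 2, also called chr7:6717620-6718539, chr7:6722497-6723784 and chr7:6792875-6794265. The widest gap was in MEF10 MyoD+FRG, with 7 (36.8%), where a call also needs the long-peaked replicate 2.

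**Figure D4:**
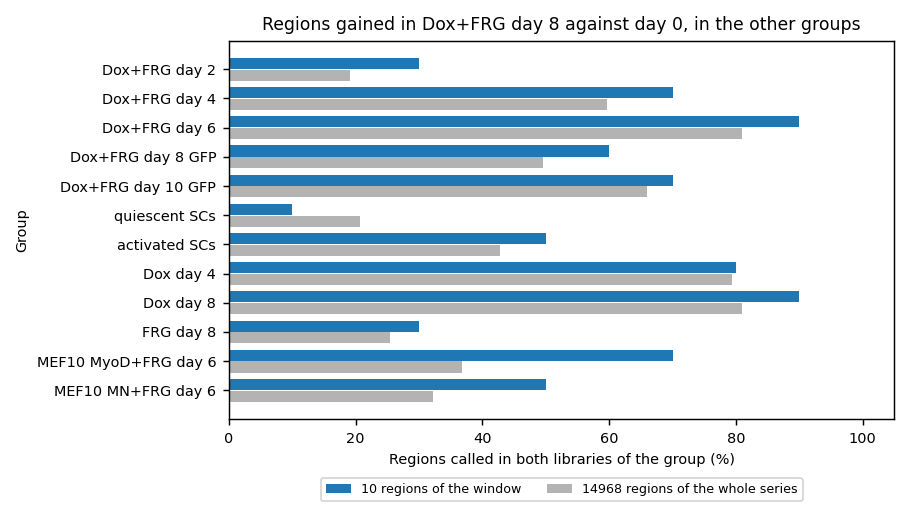
Share of the regions gained in Dox+FRG day 8 against day 0 that both libraries of each other group called, for the 10 regions of the window (blue) and the 14968 of the series (grey). The blue bar is longest at day 6 and Dox day 8, with 9 of the 10, and shortest in quiescent satellite cells, with 1.

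The 2 lost regions were chr7:6713646-6714275 and chr7:6732521-6734575. The first was called in both day 0 libraries, both MEF10 MyoD+FRG libraries and 1 Dox day 8 library only. The other, chr7:6732521-6734575, holds a pair of separate sites that only the 2055 bp peak of MEF10 MyoD+FRG replicate 2 spans. Merged without that library, 3 regions were lost at day 8.

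The sites of that pair differed between GFP-labelled and satellite cells. Site chr7:6732777-6732981 was called in both day 0 libraries and in all 4 satellite cell libraries, and in none of the 8 unsorted Dox+FRG, 4 GFP and 4 Dox libraries. Site chr7:6734330-6734540 was called in both day 0 libraries and in all 4 GFP libraries, in 1 of 2 Dox+FRG day 2 libraries, and in none of the 6 unsorted Dox+FRG libraries of days 4 to 8, the 4 satellite cell and the 4 Dox libraries. Both FRG and both MEF10 MN+FRG libraries called both sites, and MEF10 MyoD+FRG replicate 1 called the first only. Over the series merged in that way, the pattern of the first site held for 9 of 195269 regions (0.00461%) and that of the second for 14 of 193063 (0.00725%), each 1 of 44 in the window (2.27%). Both patterns were picked after the calls were seen. Merged over all lists, the region counts as called in day 0, GFP and satellite cells and not in Dox+FRG days 4 to 8 or Dox, as do 4 of 186347 regions of the series (0.00215%). With the sites kept apart, 0 of 44 in the window had that pattern.

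**Figure D5:**
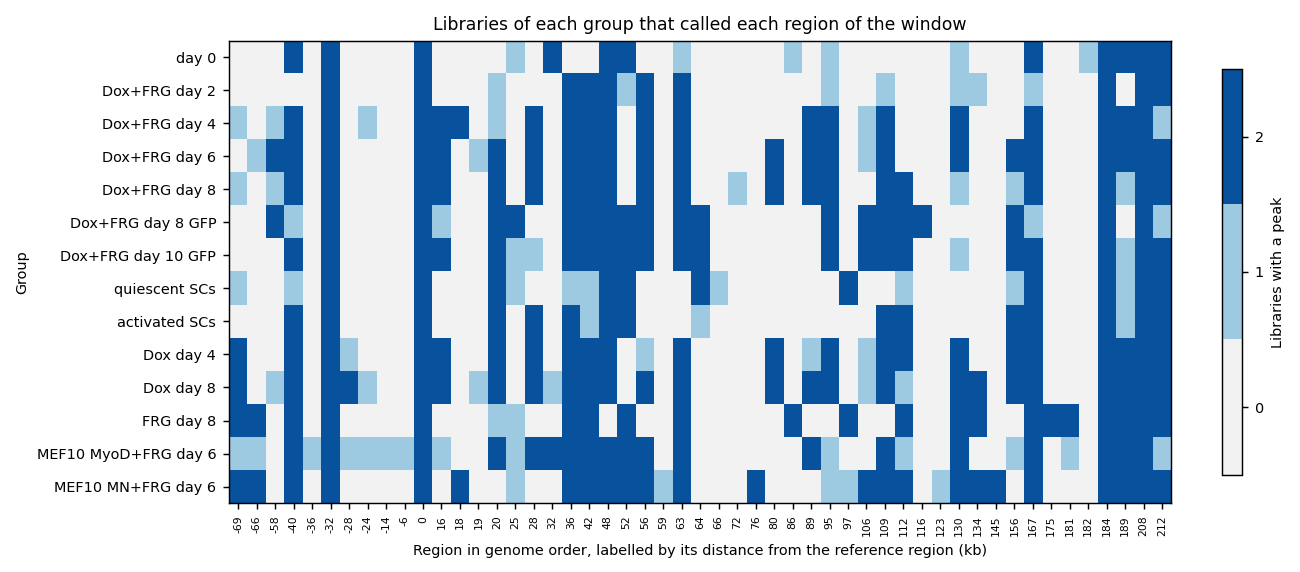
Number of libraries, 0 to 2, that called each of the 51 regions in each group; columns are regions in genome order, labelled by distance in kb from the reference region. The column at 52 kb is chr7:6732521-6734575, empty in Dox+FRG days 4 to 8 and Dox, where GFP and satellite cells are both dark but called separate sites of the region, and the column at 64 kb is chr7:6746037-6746344, dark in GFP and quiescent cells.

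GFP-labelled and unsorted cells of day 8 differed in 8 of 31 regions. GFP cells gained 5 (16.1%, against 3.57% over the series) and lost 3 (9.68%, against 13.3%). The lost regions were chr7:6709469-6710841, chr7:6761977-6762354 and chr7:6770229-6771110, all of them among those gained at day 8 in unsorted cells and each called in at least 3 of 4 Dox libraries. The gained regions included chr7:6732521-6734575 (at its site chr7:6734330-6734540), chr7:6706138-6706637 and chr7:6787674-6788319. Region chr7:6797135-6797425 was called in both day 8 GFP libraries and in no other library, as were 79 regions of the series (0.0312%). Region chr7:6746037-6746344 was called in all 4 GFP and both quiescent libraries, in 1 activated library and in none of the 20 fibroblast-derived libraries without a GFP label. That held for 165 of 248542 regions of the series (0.0664%) and 1 of 51 in the window (1.96%). Without day 8 GFP replicate 1 the lost regions were 6, and without unsorted day 8 replicate 2 they were 7.

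Day 10 GFP cells were compared with satellite cells by the regions that both libraries of a group called. Of the 11 regions of quiescent cells, 10 were called in day 10 GFP cells, which is 90.9% of the quiescent and 47.6% of the 21 GFP regions, against 77.8% and 51.9% over the series. The Jaccard index of these groups was 0.455 in the window and 0.452 over the series. Of the 15 regions of activated cells 14 were shared (93.3%, and 66.7% of the GFP regions, against 69.6% and 56.1% over the series), with an index of 0.636 against 0.450. These counts include chr7:6732521-6734575. Merged without MEF10 MyoD+FRG replicate 2, 9 of 11 (81.8%) and 13 of 15 (86.7%) were shared, against 77.1% and 68.8% over the series. These were 42.9% and 61.9% of the GFP regions, against 51.3% and 55.6% over the series. The index with quiescent cells was then 0.391, below the 0.446 of the series, and with activated cells 0.565 against 0.444. Against quiescent cells GFP day 10 cells gained 6 of 28 regions (21.4%, against 20.2% over the series) and lost 1 (3.57%, against 7.31%). Against activated cells they gained 5 of 25 (20.0%, against 19.1%) and lost none, where 11.7% were lost over the series. Merged without MEF10 MyoD+FRG replicate 2, the counts were 7 gained and 2 lost against quiescent cells and 6 and 1 against activated cells, since the sites of chr7:6732521-6734575 then counted once each way. Regions chr7:6697113-6697758, chr7:6736836-6737838, chr7:6744083-6745027, chr7:6776270-6776950 and chr7:6787674-6788319 were gained against both. Against quiescent cells there were 11 gained regions without quiescent replicate 1 and 3 lost regions without quiescent replicate 2.

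Activated and quiescent satellite cells differed in few regions of the window. Activated cells gained 2 of 22 (9.09%, against 17.2% over the series), chr7:6709469-6710841 and chr7:6790447-6791491, and lost 1 (4.55%, against 10.8%), chr7:6778763-6778976. Region chr7:6778763-6778976 was called in both quiescent and both FRG libraries, in 1 MEF10 MN+FRG library and nowhere else. Over the series 557 regions (0.233%) were called in all quiescent and FRG libraries and in none of the day 0, Dox+FRG, GFP, activated and Dox libraries. There were 6 gained regions without quiescent replicate 1, and the lost regions became 2 without activated replicate 2 and 4 without quiescent replicate 2.

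MyoD without the small molecules and the small molecules without MyoD gave sets that overlapped in part. Of regions called in both libraries, Dox day 8 cells had 25 and FRG day 8 cells 21, and 14 were shared. Their Jaccard index was 0.438 in the window against 0.380 over the series. Dox day 8 cells called 10 of 38 regions that FRG day 8 cells did not (26.3%, against 16.7% over the series) and lacked 6 that FRG cells called (15.8%, against 21.8%). Dox day 8 cells called most of the regions gained in Dox+FRG day 8 against day 0, and FRG cells called fewer. The choice of the window thus favours a high Dox share here, and these counts are a description. Among the 10 was chr7:6728796-6731074, which was called in all 26 libraries other than those of FRG, as were 39 regions of the series (0.0154%). Within it the day 0 peaks began at 6730560 and 6730514 and overlapped no peak of a GFP or satellite cell library, the last of which ended at 6730146. Among the 6 were chr7:6856282-6856347, called in FRG libraries alone, and chr7:6732521-6734575. Dox+FRG day 8 cells gained 0 of 32 regions against Dox day 8 (1.38% over the series) and lost 2 (6.25%, against 28.2%), chr7:6653014-6654598 and chr7:6815391-6815651. The window was chosen for its regions called in Dox+FRG day 8 cells, which favours few lost regions here, so this count is a description. The lost regions were 6 without Dox+FRG day 8 replicate 1 and 5 without Dox day 8 replicate 1. One region was gained without Dox+FRG day 8 replicate 2 or Dox day 8 replicate 2.

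MEF10 MyoD+FRG gained 4 of 41 regions against MEF10 MN+FRG (9.76%, against 2.34% over the series) and lost 5 (12.2%, against 15.4%). The gained regions were chr7:6701865-6702490, chr7:6709469-6710841, chr7:6713646-6714275 and chr7:6770229-6771110, and the list of replicate 1 is the shortest of all. All but chr7:6713646-6714275 were also gained in Dox+FRG day 8 against day 0, so the choice of the window favours this count. The Jaccard index of the MEF10 MyoD+FRG replicates was 0.576 in the window and 0.380 over the series. Without replicate 2 the lost regions were 9, and without replicate 1 the gained regions were 12.

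Among 4342 other 400 kb tiles of the genome with a median of at least 5 peaks, 3 followed the window's peaks per 10000 most closely over the 28 libraries. They lay on chromosome 6 from 128400001 to 128800000 (Pearson r = 0.85), chromosome 4 from 116800001 to 117200000 (r = 0.84) and chromosome 5 from 77200001 to 77600000 (r = 0.84). The values were the same without MEF10 MyoD+FRG replicate 2. Across tiles the median r was 0.03 and the 90th percentile 0.56. Shares share the list length as denominator, and the window's own share correlated with the reciprocal of list length at r = 0.67, so these values describe the libraries and carry no test.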

How the data were processed

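ATAC-seq was deposited for 28 libraries in 14 groups of 2, with 60000 cells per reaction and 13 PCR cycles per the labels' protocols. BWA, HOMER and the build mm9 are named in the submitters' processing notes. Their versions and the filters, thresholds and read shift were not given in the sources used here. The deposited values are other than counts or signal: chromosome, start and end of each peak of 1 library, without score or reads, so no precision from depth can be given. Starts were counted from 0 and are printed from 1.

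Peaks overlapping by at least 1 bp were merged over all 28 lists with Python 3.11.15 and numpy 2.4.6, and a region was called by any peak in it. Counting was tested on simulated lists. The tests were 3 two-sided exact permutation tests over libraries of peaks per 10000, Benjamini-Hochberg adjusted. Their groups lay outside the contrast that drew attention to the window. However, Dox+FRG days 4 and 6 and GFP cells belong to the same conversion and call most regions gained there. The choice of the window thus favours a high share in them, and the tests are not independent of it. They measure the spread between libraries, which may be technical and includes differences between the days or states pooled in a group of 4. Named regions were the 5 called in most libraries, then those gained or lost in set comparisons, up to 12. Others were chosen after their calls were seen. The members and lists were chosen with earlier results of these data known. Alternatives were other scalings, equal list lengths (mean of 100 random draws), wide peaks alone, peak middles, autosomes, replicate blocks, a 50% overlap, merging without MEF10 MyoD+FRG replicate 2, and each library left out. Added after seeing the data were the percentile among tiles, Dox+FRG days 4 and 8 in place of 4 and 6, and patterns and shared regions merged without MEF10 MyoD+FRG replicate 2. Promoter sequences are RefSeq's for GRCm38.p6, and no coordinates were carried between builds.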

Additional observations from a re-analysis of the deposited data

How the results depend on the processing

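The shares of peaks per 10000 kept direction and side of the threshold per Mb covered, with peak middles, autosomes and tile percentiles. Random draws to equal list lengths leave the expected share as it is and so do not bear on list length. As plain counts, GFP minus unsorted cells turned to -0.500 (exact permutation p = 0.771) and Dox minus Dox+FRG to 3.00 (p = 0.200, exact). With wide peaks alone Dox minus Dox+FRG was -0.754 and satellite minus GFP cells turned to 1.57. Replicate numbers did not pair the libraries: over 91 pairs of groups, deviations of same-numbered libraries correlated between -0.179 and 0.109, above 0.1 in 1 pair. With the replicate block the differences stayed at 0.590 (exact permutation p = 0.333), -1.27 and -1.26 (exact p = 0.0556 each, past the threshold no longer). Leaving out each library gave 0.353 to 0.859 for GFP against unsorted cells, -1.44 to -1.10 for Dox, and -1.53 to -1.02 for satellite cells (exact permutation p from 0.0286 to 0.0571).

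With wide peaks alone there were 33 regions and none called in all lists, and gained and lost counts became 1 and 0 (Dox+FRG day 8 against day 0), 0 and 1 (GFP against unsorted), 1 and 2 (GFP day 10 against quiescent), 1 gained (against activated), 0 and 0 (activated against quiescent), 5 and 1 (Dox against FRG), 0 and 3 (Dox+FRG against Dox, from 0 and 2) and 0 and 1 (MEF10). Merging without MEF10 MyoD+FRG replicate 2 gave 50 regions, and gained and lost counts of 10 and 3 (day 8 against day 0), 7 and 2 (GFP day 10 against quiescent), 6 and 1 (against activated), 11 and 7 (Dox against FRG) and 0 and 3 (Dox+FRG against Dox), with the other 3 comparisons as before. It separates sites that this library's long peaks join. An overlap of 50% moved no count. The cause of the moves with wide peaks was not tested. Leaving out each library gave gained and lost counts of 10 to 14 and 2 to 4 (day 8 against day 0), 5 to 7 and 3 to 7 (GFP against unsorted), 6 to 11 and 1 to 3 (against quiescent), 5 to 7 and 0 to 1 (against activated), 2 to 6 and 1 to 4 (activated against quiescent), 10 to 14 and 6 to 7 (Dox against FRG), 0 to 1 and 2 to 6 (Dox+FRG against Dox), and 4 to 12 and 5 to 9 (MEF10). Having 1 library stand for its group raises counts by construction.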
